A study of Homo sapiens with 4 samples.

Results

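The apolipoprotein L (APOL) family is a group of 6 related human genes, APOL1 to APOL6, that lie near one another on chromosome 22. Described here are the 5 of them chosen by name for a comparison of treated with untreated leukaemia cells, APOL1, APOL2, APOL3, APOL4 and APOL6, which are 5 of the 56638 gene rows in the count table. The cells were MV4;11, an established line grown from a human acute myeloid leukaemia, which carries KMT2A-AFF1 and FLT3-ITD, and no further genetic change is named. All 4 libraries came from cells taken after 24 h. The DMSO group (2 libraries) received vehicle, which the sample treatment label gives as DMSO and the treatment protocol as PBS. The CU-T12-9 group (2 libraries) received the TLR1/TLR2 agonist CU-T12-9, a small molecule, at 1 µg/mL. An effect of DMSO itself cannot be told apart from that of the agonist if only one group received it. Separate cultures are not named for the libraries within a group, so p-values measure the spread between these libraries, which may be technical.

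APOL proteins carry a membrane-inserting region related to bacterial pore-forming toxins. APOL1, the founding member, has a signal peptide and circulates on high-density lipoprotein, where it is the human factor that lyses African trypanosomes. The other members lack that signal and stay inside the cell: APOL3 dissolves the membranes of cytosolic bacteria together with guanylate-binding proteins, APOL6 has been described as a BH3-bearing protein that triggers cell death when overproduced, APOL2 sits on the endoplasmic reticulum, and APOL4 is the least studied. Several family genes are known as targets of interferons and of tumour necrosis factor in endothelium and macrophages.

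The 5 genes did not move together under CU-T12-9. APOL4, the most abundant of them in DMSO, fell 6.0-fold. APOL3, APOL1 and APOL2 rose, APOL3 from near the limit of detection by a fitted 20.5-fold, APOL1 2.55-fold and APOL2 1.74-fold. APOL6 did not pass the test. Thus 4 of 5 members were called at an adjusted p under 0.05, against 65.2% of all 14018 genes tested (32.0% higher and 33.2% lower), so the number of calls is near what the background gives for 5 genes. Tested against a fold of 2, a stricter rule that 12.8% of all tested genes met (7.23% higher, 5.55% lower), APOL3 was called higher and APOL4 lower, and APOL1 and APOL2 were not called. The counts are of bulk RNA, in which fewer cells of a kind and less RNA per cell cannot be told apart.

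Library totals ran from 23087102 to 25867733 reads. Levels are given as CPM, counts scaled by the TMM-adjusted library size, and 3 reads corresponded to 0.115 to 0.133 CPM. Counting errors only are covered by such floors and by binomial intervals, because reads counted with no molecular identifiers can repeat a molecule. All 10 markers listed for a myelomonocytic KMT2A-rearranged line, CD33, FLT3, SPI1, HOXA9 and MEIS1 among them, passed the filter on low counts and all were called, 6 higher and 4 lower, with a median log2 fold change of 0.43. Their summed level was 2990 to 3080 CPM in DMSO and 2275 to 2396 CPM in CU-T12-9, mostly LYZ, which fell from 2002 to 1276 CPM. CSPG4 fell most (32.3 to 2.07 CPM) and ITGAM rose most (2.71 to 11.4 CPM). Of 5 endothelial and 5 hepatocyte markers, from cell types known for APOL genes, only SERPINA1, which myeloid cells also make, passed the filter on low counts. CLDN5, KDR, TTR and FGB were at 0 in all libraries, the endothelial sum was 0.115 to 0.342 CPM, and the hepatocyte sum went from 6.97 to 7.83 CPM in DMSO to 116 to 119 CPM in CU-T12-9 through SERPINA1. All 5 erythroid markers were at 0, the T cell sum of 6 markers was 0 to 0.192 CPM and the B cell sum of 5 markers 1.09 to 1.90 CPM. Of 5 fibroblast markers, DCN had 0 and 0 reads in DMSO and 21 and 15 in CU-T12-9, and LUM 0 and 1 against 10 and 18, and both were called higher. DCN and LUM passed the filter on low counts through their CU-T12-9 libraries alone, so they were tested only because they rose. Epithelial markers summed to 5.37 to 6.22 CPM in DMSO and 3.46 to 3.67 CPM in CU-T12-9, with EPCAM and CDH1 at 0. The part of these markers in the APOL results was not tested.

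APOL1, the secreted trypanolytic member, had 40 and 24 reads in the DMSO libraries and 77 and 73 in the CU-T12-9 libraries, or 1.54 and 1.00 CPM against 3.29 and 3.23 CPM. Both CU-T12-9 libraries lay above both DMSO libraries, and the DMSO pair was the more widely spread. The mean level went from 1.27 ± 0.377 to 3.26 ± 0.047 CPM (SD, n = 2 in each group). Its log2 fold change was 1.35 (SE 0.24, 95% interval 0.80 to 1.90, edgeR quasi-likelihood adjusted p = 0.00101, Benjamini-Hochberg over all 14018 genes). Against a fold of 2 the adjusted p was 0.198 in the same edgeR fit, so a change beyond that size was not shown.

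APOL2, an intracellular member next to APOL1 on the chromosome and on the opposite strand, had 177 and 134 reads in DMSO and 251 and 246 in CU-T12-9. In CPM these were 6.79 and 5.60 against 10.7 and 10.9, and the groups did not overlap. The mean went from 6.20 ± 0.848 to 10.8 ± 0.098 CPM (SD, n = 2 in each group), a log2 fold change of 0.80 (SE 0.13, 95% interval 0.51 to 1.09, edgeR quasi-likelihood adjusted p = 5.15e-04).

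APOL3, the antibacterial member, was almost unread in DMSO, with 3 and 1 reads, and had 33 and 47 reads in CU-T12-9. These were 0.115 and 0.0418 CPM against 1.41 and 2.08 CPM. Both DMSO libraries lay at or under the level of 3 reads, and both CU-T12-9 libraries lay well above it. The fitted log2 fold change was 4.36 (SE 0.51, 95% interval 3.20 to 5.51, edgeR quasi-likelihood adjusted p = 6.14e-05), which only 178 of the 14018 tested genes exceeded. APOL3 passed the filter on low counts through its CU-T12-9 libraries alone, since 10 reads, the minimum, corresponded to 0.425 CPM at the median total, so a gene with this DMSO level was tested only because it rose. The size rests on 4 DMSO reads: without the first DMSO library the log2 fold change was 5.20 and without the second 3.85.

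APOL4, the least studied member, had 723 and 661 reads in DMSO and 104 and 108 reads in CU-T12-9. The levels were 27.8 and 27.6 CPM against 4.45 and 4.77 CPM, a wide gap between 2 tight pairs. The mean fell from 27.7 ± 0.108 to 4.61 ± 0.230 CPM (SD, n = 2 in each group). Its log2 fold change was -2.59 (SE 0.10, 95% interval -2.81 to -2.36, edgeR quasi-likelihood adjusted p = 4.19e-08, and adjusted p = 6.40e-07 against a fold of 2). Only 100 of the 14018 tested genes had a lower log2 fold change than APOL4.

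APOL6, described as a BH3-bearing member, had 237 and 230 reads in DMSO and 188 and 213 in CU-T12-9, or 9.10 and 9.60 CPM against 8.04 and 9.41 CPM. The groups overlapped, the second CU-T12-9 library lying between the DMSO libraries. The log2 fold change was -0.10 (SE 0.12, 95% interval -0.38 to 0.18, edgeR quasi-likelihood adjusted p = 0.50). The interval leaves room for a small fall or a small rise, and does not show that APOL6 was unchanged. APOL6 was the only member whose groups overlapped: 4 of 5 members had groups that did not, against 82.3% of all tested genes. APOL5, the family gene outside the comparison, had 0 reads in all 4 libraries, which allows a level of up to 0.115 to 0.133 CPM.

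**Figure D1:**
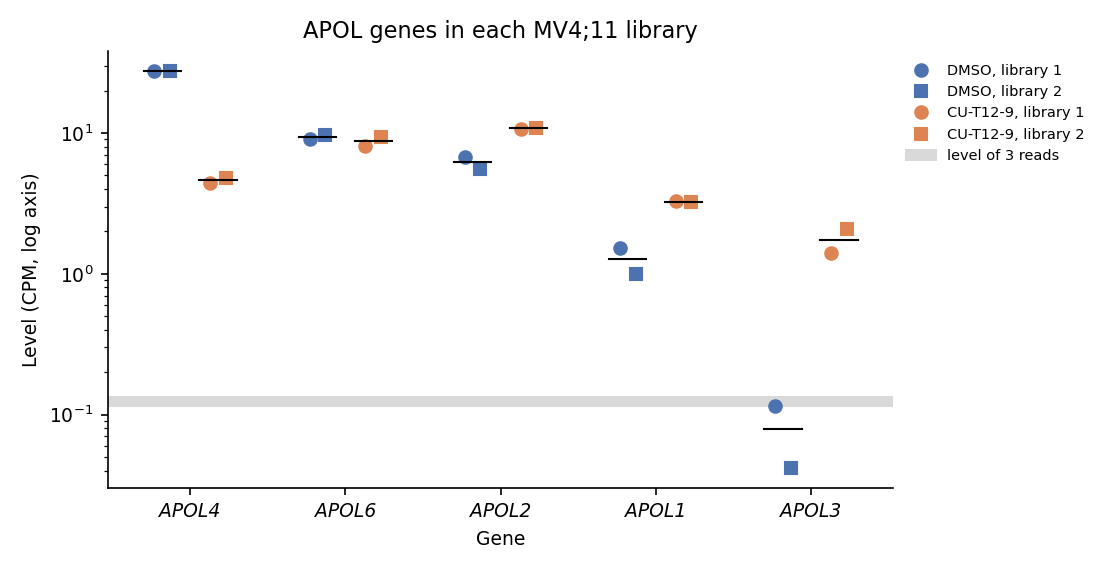
Level of each APOL gene in each of the 4 libraries, in CPM on a log axis, with DMSO libraries in blue, CU-T12-9 libraries in orange, circles for the first and squares for the second library of a group, and a black line at each group's mean. APOL4 drops from about 27.7 to 4.61 CPM, APOL2, APOL1 and APOL3 rise, APOL6 overlaps between groups, and the DMSO points of APOL3 lie at or under the grey band, the level of 3 reads.

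Among all tested genes the median log2 fold change was 0.00, and the median of the 5 members was 0.80, a value that is simply that of APOL2. The members spread over most of the range of the table. APOL4 stood at the 0.713 percentile of log2 fold changes, APOL6 at the 43.8, APOL2 at the 85.5, APOL1 at the 92.2 and APOL3 at the 98.7 percentile.

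**Figure D2:**
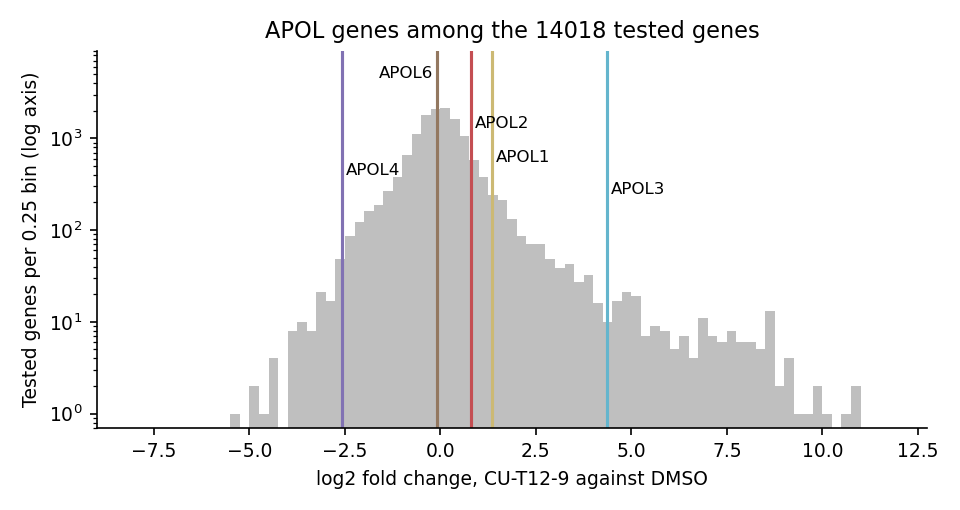
Histogram of the log2 fold change of all 14018 tested genes (grey, bins of 0.25, log axis of gene counts), with a vertical line at each APOL gene. APOL4 at -2.59 and APOL3 at 4.36 stand in opposite tails, and APOL6 at -0.10 stands near the centre.

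The most read APOL gene differed between the groups. Summed over the 5 genes, the level was 44.6 ± 1.03 CPM in DMSO and 29.1 ± 1.72 CPM in CU-T12-9 (SD, n = 2 in each group), so the total was lower in CU-T12-9 although 3 of its members rose. APOL4 gave 61.3% (723 of 1180 reads, exact 95% binomial interval 58.4 to 64.1%) and 63.0% (661 of 1050, 59.95 to 65.9%) of the family's reads in the DMSO libraries. In the CU-T12-9 libraries it gave 15.9% (104 of 653, 13.2 to 19.0%) and 15.7% (108 of 687, 13.1 to 18.7%). The intervals of the groups lay far apart, while those within a group overlapped.

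APOL2 took the first place, with a share of 13.9 ± 1.58% in DMSO and 37.1 ± 1.86% in CU-T12-9. APOL6, whose own level did not pass the test, went from 21.0 ± 1.29% to 29.9 ± 1.57% of the smaller total. APOL1 went from 2.84 ± 0.781% to 11.2 ± 0.824% and APOL3 from 0.175 ± 0.112% to 5.95 ± 1.26% (SD, n = 2 in each group throughout). Within a library, there were 4.08 and 4.93 APOL4 reads for each APOL2 read in DMSO and 0.414 and 0.439 in CU-T12-9, a ratio that does not depend on how libraries are scaled. With 2 libraries against 2, an exact two-sided permutation test of such a ratio cannot go below p = 0.333, so no test is given for it.

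**Figure D3:**
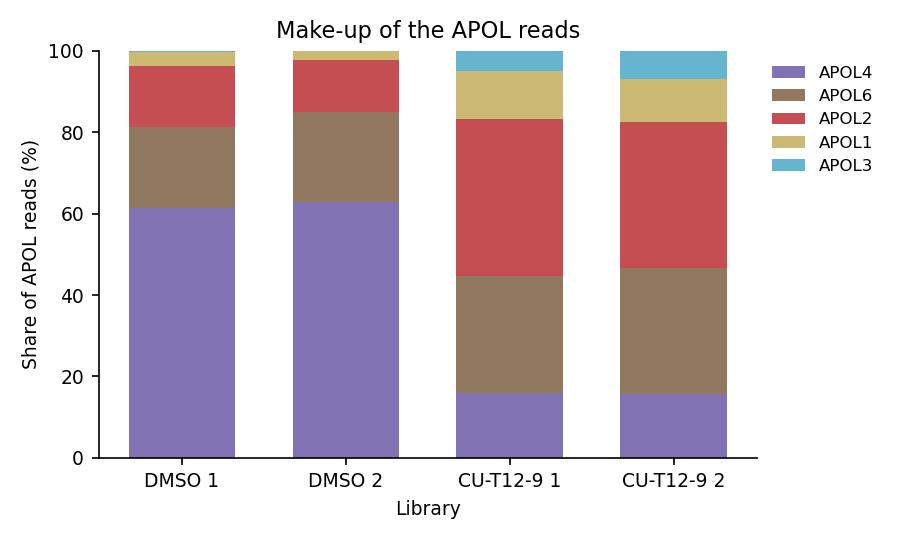
Share of the reads of the 5 APOL genes held by each gene, as stacked bars that add up to 100%, 1 bar per library. APOL4 holds 61.3% and 63.0% in the DMSO libraries and 15.9% and 15.7% in the CU-T12-9 libraries, where APOL2 is the largest part.

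Levels of different genes can be set side by side only per length. Divided by the merged exon length in GENCODE release 29, which is of another build than the table and serves here for lengths only, APOL4 led in DMSO with 6.32 ± 0.025 CPM per kilobase. It was followed by APOL2 (1.78 ± 0.243), APOL6 (0.924 ± 0.035), APOL1 (0.361 ± 0.107) and APOL3 (0.0133 ± 0.0088 CPM per kilobase; SD, n = 2). No neighbours in this order overlapped between libraries. APOL6 stands lower on this scale than in CPM because its single transcript is long, 10121 bases against a merged length of 3484 bases for APOL2.

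In CU-T12-9 the order per kilobase was APOL2 (3.10 ± 0.028), APOL4 (1.05 ± 0.053), APOL1 (0.926 ± 0.013), APOL6 (0.862 ± 0.096) and APOL3 (0.296 ± 0.080 CPM per kilobase; SD, n = 2). With this length APOL1 and APOL6 overlapped between libraries and cannot be ordered, and APOL4 lay only just above them. The order was the same in both groups with the length of the longest transcript in place of the merged length. With the longest transcript, APOL1 (1.10 and 1.08 CPM per kilobase) and APOL6 (0.794 and 0.930) did not overlap in CU-T12-9, so their overlap depends on the length chosen.

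Exact sharing of sequence between these relatives was small in the reference transcripts. Near matches were not counted, so the sharing of reads itself was not measured. Of the windows of 50 bases in APOL1 transcripts, 14 of 3785 (0.370%) also stood in an APOL2 transcript and 9 (0.238%) in an APOL3 transcript, and no other pair of family genes shared any. With any other gene of the genome, the shared part was 3.94% of windows for APOL1, 2.07% for APOL4, 1.91% for APOL2, 0.417% for APOL6 and 0.140% for APOL3. No exon of another GENCODE gene overlapped an exon of an APOL gene on either strand.

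The genes lie on chromosome 22 in 2 groups, APOL6 and APOL5 first and then, beyond RBFOX2, the cluster APOL3, APOL4, APOL2 and APOL1 (RefSeq gene order, assembly GRCh38.p14). APOL4, the member that fell, stands in that cluster between APOL3 and APOL2, which both rose. As fitted, all 9 tested neighbours among the 11 other protein-coding genes within 5 places of either group were called, 4 higher and 5 lower (3 of these calls, of TXN2, FOXRED2 and EIF3D, depended on the setting), and MB and CACNG2 were not tested. Over all tested genes, 65.2% were called (32.0% higher and 33.2% lower), and 12.8% beyond a fold of 2. Beyond a fold of 2 the called neighbours were TOM1, an endosomal sorting adaptor (21.3 ± 1.24 to 51.2 ± 1.44 CPM), HMOX1, heme oxygenase 1 (0.763 ± 0.102 to 6.42 ± 0.857 CPM), MCM5, a subunit of the replicative helicase (330 ± 9.07 to 90.2 ± 1.49 CPM), RBFOX2, a splicing factor (1.65 ± 0.326 to 0.412 ± 0.083 CPM), and RASD2, a small GTPase. The RASD2 reads summed to 28 in the DMSO pair and to 2 in the CU-T12-9 pair, a scaled ratio of 12.9 (exact 95% interval 3.25 to 112). Its fitted log2 fold change was -2.56 without the first CU-T12-9 library and -6.79 without the second, which held both of those reads. RASD2, and RBFOX2 with 11 and 8 reads in CU-T12-9, did not reach the minimum of the filter in both CU-T12-9 libraries. They could be tested only with the help of their DMSO libraries, so a fall favoured their entry into these neighbour counts.

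On the other side of APOL1, MYH9, the non-muscle myosin heavy chain gene, rose from 641 ± 6.78 to 1136 ± 121 CPM, a log2 fold change of 0.83. The next genes moved little: TXN2 by -0.14, FOXRED2 by -0.26 and EIF3D by 0.16 on the log2 scale. The call of TXN2 was lost with DESeq2 (adjusted p = 0.223), with DESeq2 size factors or either other filter in edgeR (edgeR adjusted p = 0.0527 to 0.0915) and without either DMSO library or the first CU-T12-9 library (edgeR adjusted p = 0.121, 0.375 and 0.139), and those of EIF3D and FOXRED2 without the first DMSO library (edgeR adjusted p = 0.280 and 0.142). EIF3D also lost its call without the second DMSO library (edgeR adjusted p = 0.130). Genes that rose and genes that fell stood side by side along the region, and over all tested genes rises and falls were about equally common.

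**Figure D4:**
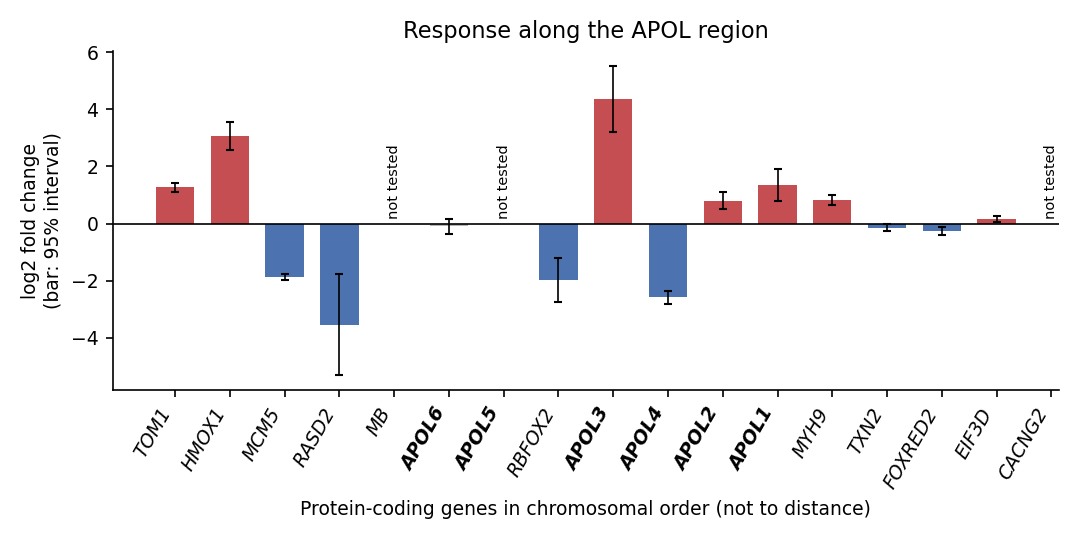
log2 fold change of the APOL genes (bold) and their protein-coding neighbours in the order in which they lie on the chromosome, not to distance, with red bars for called rises, blue for called falls, grey for no call and lines for 95% intervals. APOL4 at -2.59 stands between APOL3 at 4.36 and APOL2 at 0.80, and 3 genes without enough reads are marked as not tested.

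Interferon genes themselves were nearly silent. Of 21 interferon ligand genes in the table, 18 had no read in any library and none was tested. IFNB1 had 2 reads in the first CU-T12-9 library and none in the others, IFNL1 had 1 read in the same library, and IFNA5 had 1 read in the first DMSO library. Among 12 tested genes for interferon receptors, their kinases and feedback inhibitors, the test called 9 rises and 0 falls, and the median log2 fold change was 0.90. Over all tested genes, 32.0% were called higher and 33.2% lower, which is the background for this and each later list. The feedback protease gene USP18 rose from 1.48 ± 0.145 to 5.42 ± 0.710 CPM, the interferon gamma receptor chain IFNGR2 from 56.5 ± 1.25 to 189 ± 4.58 CPM, and SOCS3 from 10.9 ± 1.72 to 33.3 ± 2.50 CPM (SD, n = 2 in each group). IFNAR2, IFNLR1 and SOCS1 did not pass.

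Of 14 tested interferon regulatory factor and STAT genes, 11 rose, 2 fell (IRF3 and IRF8, by 0.20 and 0.36 on the log2 scale) and IRF1 did not pass, the median being 0.61. The fall of IRF3 lost its call without either DMSO library (edgeR adjusted p = 0.0583 and 0.0808). STAT2, a transducer of type I interferon signals, rose from 44.2 ± 3.79 to 164 ± 17.7 CPM. IRF9, the DNA-binding partner of STAT2, had 53 and 38 reads in DMSO and 160 and 91 in CU-T12-9, a log2 fold change of 1.58 (SE 0.28). IRF7 rose from 10.5 ± 1.18 to 31.2 ± 2.11 CPM. IRF1, an early interferon and NF-kB target, stayed within -0.22 to 0.10 on the log2 scale by its 95% interval (29.9 ± 0.166 CPM in DMSO, 28.7 ± 0.822 CPM in CU-T12-9).

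Of the 7 guanylate-binding protein genes, all 4 that were tested rose, with a median of 3.66. GBP3, which had the smallest rise of them, had 16 and 7 reads in DMSO. It reached the minimum of the filter in both libraries of a group only in CU-T12-9. GBP5 rose from 0.622 ± 0.065 to 11.8 ± 0.829 CPM, GBP2 from 2.87 ± 1.05 to 44.3 ± 1.80 CPM and GBP4 from 7.77 ± 0.358 to 81.3 ± 9.85 CPM. GBP1, which coats cytosolic bacteria ahead of APOL3, had too few reads to pass the filter used here, 0 and 0 in DMSO and 14 and 9 in CU-T12-9, at least 8.33-fold higher against a floor of 3 reads for the DMSO pair. DESeq2, and edgeR with no filter beyond 1 read, did test GBP1 and called it higher. The log2 fold changes of the tested GBP genes ran from 1.87 to 4.24. That of APOL3, 4.36, lay above this range, though its own 95% interval (3.20 to 5.51) reached into it, and those of APOL1 and APOL2 lay below it. These differences between genes were not tested.

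Of 26 antiviral effector genes of the IFIT, OAS and MX kind, all tested, 24 rose and BST2 and HERC5 fell, with a median of 2.62. IFIT1, IFIT2, IFIT3, IFIT5, OAS3, IFI44, IFI44L and ISG20 did not reach the minimum of the filter in both DMSO libraries. They could be tested only with the help of their CU-T12-9 libraries, so a rise favoured their entry into this count and median. OAS3 rose from 0.138 ± 0.077 to 8.52 ± 1.77 CPM and IFI44L from 0.505 ± 0.171 to 12.2 ± 1.88 CPM. Without the first DMSO library, where OAS3 had 5 of its 7 DMSO reads, its log2 fold change was 6.57 in place of 5.87. The fall of HERC5 was not called by DESeq2 (adjusted p = 0.0981) or without the first DMSO library (edgeR adjusted p = 0.0563). Of 5 NF-kB subunit genes, 4 rose and 0 fell (median 1.59). RELB rose from 10.8 ± 1.43 to 185 ± 12.9 CPM and NFKB2 from 15.4 ± 0.867 to 222 ± 1.56 CPM (SD, n = 2 in each group), log2 fold changes of 4.10 and 3.85. RELA, the subunit that did not pass, had a log2 fold change of 0.09. Of the receptor genes for TLR1/TLR2 ligands, 5 of 5 tested rose, TLR1 by 1.68 and TLR2 by 0.68 on the log2 scale. TLR10, also among them, had 11 and 9 reads in DMSO. It reached the minimum of the filter in both libraries of a group only in CU-T12-9, so a rise favoured its entry into this count.

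**Figure D5:**
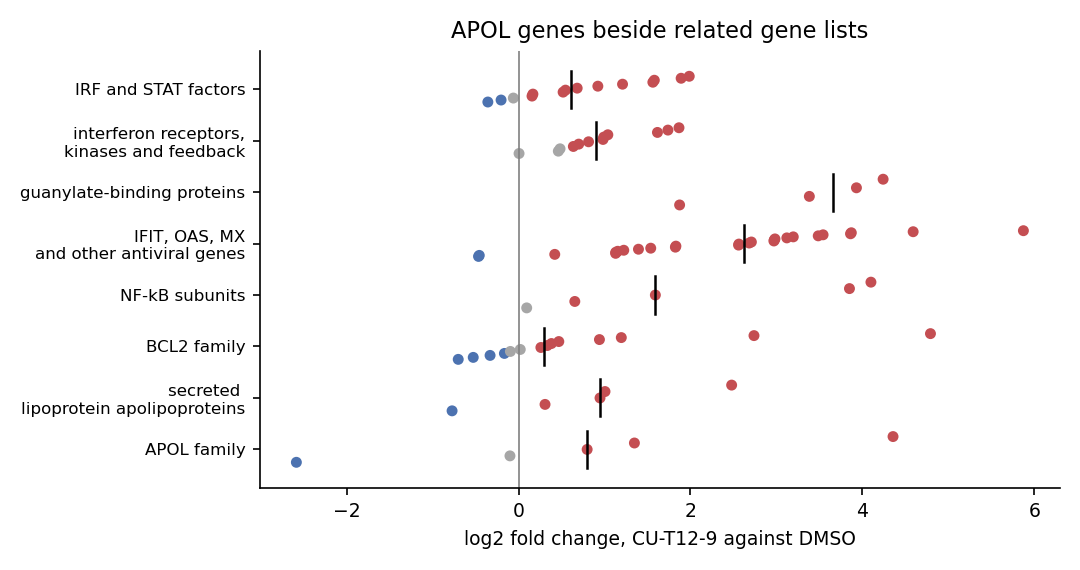
log2 fold change of each tested gene in 8 lists, 1 point per gene, red for called rises, blue for called falls and grey for no call, with a black line at the list's median. The guanylate-binding protein and antiviral lists have medians of 3.66 and 2.62, and the APOL family reaches from -2.59 to 4.36 around a median of 0.80.

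Genes named for work with APOL proteins moved in both directions. NCS1, a calcium sensor that binds APOL3, fell from 58.3 ± 1.38 to 16.1 ± 1.60 CPM, a log2 fold change of -1.86 (SE 0.08, edgeR quasi-likelihood adjusted p = 8.84e-08). PI4KB, the Golgi lipid kinase that NCS1 activates, rose by 0.39 on the log2 scale, and VAMP8, a vesicle fusion protein, fell by 0.56 on the same scale. Of the partners of APOL1 in its blood complex, APOA1 had 5 and 13 reads in DMSO and 1 and 4 in CU-T12-9, HP 5 and 4 against 4 and 3, and HPR none. PLTP, the phospholipid transfer protein, was the only tested one, with a log2 fold change of 0.71 (edgeR quasi-likelihood adjusted p = 0.0307) that DESeq2 did not call (adjusted p = 0.157). Its call was also lost without the first DMSO, the second DMSO or the second CU-T12-9 library (edgeR adjusted p = 0.0625, 0.108 and 0.189).

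APOLD1, on another chromosome and named for its APOL-like domain, rose from 27.0 ± 0.971 to 52.3 ± 0.790 CPM, a log2 fold change of 0.96 (SE 0.07). The MICOS subunits that carry apolipoprotein names, APOO and APOOL, had log2 fold changes of -0.86 (a called fall) and 0.17 (no call). The secreted lipoprotein apolipoproteins are unrelated to APOL in sequence. Of 16 such genes, 8 had no read in any library and 5 were tested, of which 4 rose and 1, APOM, fell, with a median of 0.95. APOC1 led them, from 3.39 ± 0.937 to 18.8 ± 0.654 CPM, and it alone was also called by DESeq2, which gave adjusted p = 0.0865 for APOC2, 0.287 for APOE, 0.188 for CLU and 0.218 for APOM. APOE had 13 and 8 reads in DMSO. It reached the minimum of the filter in both libraries of a group only in CU-T12-9, so a rise favoured its entry into the 4 rises and the median. In place of 4 rises, 2 were called without the first DMSO or the second CU-T12-9 library and 1 without the second DMSO library. In place of 1 fall, 2 were called without the first DMSO library and 0 without the second.

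Since APOL6 and APOL1 have been described as BH3-bearing proteins, the BCL2 family was counted beside them. Of 14 tested genes, 8 rose and 4 fell (median 0.30), where 32.0% of all tested genes were called higher and 33.2% lower. BCL2A1, BMF and BCL2L11 led the rises, at log2 fold changes of 4.79, 2.74 and 1.196. BCL2A1 had 5 and 4 reads in DMSO and passed the filter on low counts through its CU-T12-9 libraries alone. It was tested only because it rose, which favoured its entry into this count and median. The size of its rise rests on those few DMSO reads. BCL2, PMAIP1, BAD and BAK1 fell, and BCL2L2 and BIK did not pass. DESeq2, and edgeR without the first DMSO library, called 2 falls in place of 4. Of 8 tested genes for membrane-rupturing death proteins, 2 rose and 2, DFNA5 and BAK1, fell (median -0.08). Neither share was above that of all tested genes. NINJ1, which ruptures the plasma membrane of dying cells, rose from 36.5 ± 2.17 to 89.8 ± 8.76 CPM. The fall of DFNA5 (gasdermin E, log2 fold change -0.71) was not called by DESeq2 (adjusted p = 0.136), which called 0 falls in this list. Without the second DMSO library 0 falls were called too, and 1 without the first DMSO or the first CU-T12-9 library. BAK1 lost its call with DESeq2 size factors as well (edgeR adjusted p = 0.0557). MLKL, GSDMB, GSDMD and DFNB59 did not pass, although GSDMB did with no filter beyond 1 read and without the first DMSO or the second CU-T12-9 library (edgeR adjusted p = 0.0114, 0.00372 and 1.86e-07).

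The genes most like each member were taken as those with the smallest distance between log2(CPM + 0.5) values, centred on their mean over the 4 libraries, among genes of at least 5 CPM. This measure mostly ranks genes by the size of their response and by which library of a pair is higher, so it describes these 4 libraries only. APOL4 was closest to ZNF367 (distance 0.026, 44.5 ± 0.186 to 7.70 ± 0.241 CPM), a zinc finger gene of dividing cells, and to E2F2 (distance 0.039, 34.0 ± 0.663 to 5.74 ± 0.195 CPM), an E2F factor that drives S phase genes. APOL2 was closest to KCTD17 and TESK2 (distances 0.040 and 0.054), and APOL6 to SPTY2D1 and PSMD9 (0.015 and 0.024).

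APOL1 was closest to RARG, a retinoic acid receptor gene, and to ZNF425, at distances of 0.124 and 0.146. APOL3 had no close match: its nearest genes, RTN2 and KLHL5, were at distances of 0.190 and 0.202, and their log2 fold changes of 1.91 and 2.09 lay far under the 4.36 of APOL3, whose low DMSO level is compressed by the added 0.5 CPM.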

How the data were processed

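RNA of 4 MV4;11 libraries was measured, 2 per group, and 24 h and 1 µg/mL are from the labels. The authors deposited 1 table of raw read counts per gene symbol, with 0 columns of other samples. FastQC 0.11.7, TopHat2, featureCounts 1.5.2 and GRCh37 are named, per the submitters' processing notes. For the annotation, the strand setting and multi-mapped reads, the sources used here give nothing. No positions are printed, since the reference at hand is GRCh38.

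Counts were tested in R 4.3.3 with edgeR 4.0.16: filterByExpr, TMM, quasi-likelihood test with group as the only term, with p-values adjusted after Benjamini-Hochberg across the 14018 genes that passed, at a threshold of 0.05. The test against a fold of 2 was glmTreat on the same fit. Standard errors come from the log2 fold change over the root of F. CPM means and SDs use TMM-adjusted sizes. Replicate pairs differed beyond counting noise (chi-square per degree of freedom 2.42 and 6.99), so none was merged as a repeat deposit, which does not show that they are separate cultures.

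The members, gene lists, neighbours and alternatives (limma 3.58.1, DESeq2 1.42.0, scalings, filters, libraries left out) were chosen with earlier results of these data known. All family genes were named. In the other lists the named genes are up to 4 called ones with the largest change and a mean of at least 1 CPM, called neighbours beyond a fold of 2, and the 2 genes most like each member. IRF1, IRF9, STAT2, IFNB1, GBP1 and APOLD1 were named by symbol, and 1 gene of that rule is not reported here. Genes named as exceptions to a count, and TXN2, FOXRED2, EIF3D, MYH9, RELA and the marker genes with values, were chosen after their values were seen. Promoter and protein sequences are not used here.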

Additional observations from a re-analysis of the deposited data

How the results depend on the processing

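Over the 11 alternatives (9 for the test against a fold of 2), APOL1, APOL2, APOL3 and APOL4 kept their direction and their side of both thresholds. Their log2 fold changes ranged from 1.07 to 1.69, 0.66 to 0.94, 3.85 to 5.20 and -2.64 to -2.50, and their largest adjusted p-values in the plain test were 0.00421, 0.00188, 1.55e-04 and 2.12e-07. APOL6 never passed (adjusted p 0.139 to 0.786), and its log2 fold change ran from -0.218 to 0.0423 with 1 library left out, the value without the first CU-T12-9 library being the positive one. Other genes that passed no threshold as reported also changed sign with 1 library left out: SPTY2D1 (-0.227 to 0.0365), PSMD9 (-0.245 to 0.0211), BCL2L2 (-0.246 to 0.0621), BIK (-0.0172 to 0.0392), DFNB59 (-0.271 to 0.0532), IFNLR1 (-0.0140 to 0.861) and IFNAR2 (-0.0243 to 0.0390). IFNAR2 was also at -0.00902 with library totals and at -0.00664 with no filter beyond 1 read. Leaving out the first CU-T12-9 library brought RELA, SOCS1 and BCL2L2 past the threshold (adjusted p = 4.26e-04, 8.94e-04 and 0.0248), and leaving out the second did so for IFNLR1 and SPTY2D1 (0.0408 and 0.00106), by the edgeR quasi-likelihood test. The cause was not tested.

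The library titles number both groups, but deviations of same-numbered libraries had a correlation over genes of 0.0099. With the replicate block, 4488 genes were higher and 4655 lower, and APOL4 had a log2 fold change of -2.59. The block changed no call of an APOL gene. Among the other named genes it took the calls of TXN2 (edgeR adjusted p = 0.0561) and BAK1 (0.0521), leaving 1 called fall among the membrane-acting death genes in place of 2, and gave one to GSDMB (0.00879). Counts over all genes stayed within 1.5 times the reported ones in every setting run. Depth limits APOL3 most, with 3 and 1 reads in DMSO.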
